A study of Mus musculus with 8 samples.

Results

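Amino acid carriers of the plasma membrane and lysosome were followed across 8 microarrays of mouse bone marrow-derived macrophages. The members are the probes, other than array controls, whose gene name belongs to the solute carrier (Slc) families 1, 3, 6, 7, 36, 38 and 43, leaving out Slc7a11 and Slc7a2. This name pattern found 75 probes of 60 gene names among 55681 probes of 36451 names. It also took in carriers of creatine, taurine, betaine, GABA and monoamines in family 6, a nucleobase carrier (Slc43a3), and Slc7a6os, which shares only its name with a carrier and is no transporter. A further probe, named 1700039E15Rik in the files and Slc6a21 in RefSeq, lies outside the pattern. Of the 75 accessions behind the probes, 74 were in the RefSeq gene table and all 74 gave the same symbol.

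The cells were flushed from bone marrow of female mice aged 6 to 8 weeks and grown for 6 days in medium conditioned by L929 cells, which secrete the growth factor M-CSF. Cullin 3 is the backbone protein of ubiquitin ligases that use BTB-domain adaptors to choose their targets. The 4 groups were WT untreated, WT given LPS for 6 hours, KO untreated and KO given LPS for 6 hours, with 2 arrays each, where WT is Cullin 3 wildtype and KO is Cullin 3 knockout. LPS is the bacterial lipopolysaccharide that activates macrophages through TLR4. The labels name no Cre driver, promoter or deleted exon, and leave unsaid whether the 2 samples of a group are different animals or cultures. The p-values therefore reflect how far these particular samples spread, and that spread may be technical.

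Each array was a 1-colour Agilent array, and a level here is the log2 processed signal of a probe minus the 75th percentile of its own array. Levels are compared between groups for the same probe only, since probes differ in brightness for reasons other than abundance. The number of arrays limits the precision. The 75th percentile of the signal was between 552.54 and 1284.6, and the scanner software marked 60.91% to 73.72% of spots as well above background. Between the arrays of a group, the correlation over all probes was 0.991 to 0.995. The 8 arrays shared 1 slide, with WT in its first row and KO in its second, so genotype and row cannot be told apart, and LPS arrays lay in columns 3 and 4, so treatment and column position cannot be told apart. The Cul3 probe read 2.04 and 2.08 in WT untreated, 1.65 and 1.55 in KO untreated, 2.69 and 2.72 in WT with LPS, and 2.22 and 2.15 in KO with LPS. It was lower in KO by a log2 difference of -0.46 ± 0.12 (SE) untreated, which did not pass the test (adjusted p = 0.116), and of -0.52 ± 0.12 with LPS (adjusted p = 0.0397). The probe's place relative to the deleted part is not known. All 7 macrophage markers (Adgre1, Csf1r, Cd68, Mertk, Fcgr1, Itgam and Cd14) were above background on all 8 arrays.

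Amino acids cross the macrophage membrane through carriers of different design. The heteromeric carriers pair the heavy chain Slc3a2 with a light chain of family 7, which sets the substrate and exchanges one amino acid for another. Families 1, 6 and 38 drive uptake with the sodium gradient. Some members of family 36 use protons, and some work at lysosomes. The family 43 members Slc43a1 and Slc43a2 let large neutral amino acids pass down their gradient. Glycine, glutamate and cystine are the raw materials of glutathione, and leucine, arginine and glutamine feed the mTORC1 growth signal. In activated macrophages, arginine supply limits nitric oxide production.

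Slc6a9 and Slc1a2 had the largest genotype differences among the members in untreated cells, and their probes are therefore shown. Slc6a9 encodes GlyT1, which takes up glycine with sodium and chloride. Its 2 probes lie on the plus strand of mm9 at chr4:117541842-117541901 and chr4:117541851-117541910 and share 51 of their 60 bases, so they are close to 1 measurement. The last 30 bases of each are given, with the 21 bases printed for both probes in capitals. The lower-case bases of A_55_P1973838 also lie in the shared stretch.
Slc6a9 A_55_P1973838: gtccgtaggTTTTAATGAAATTTCTATTCC
Slc6a9 A_55_P2010788: TTTTAATGAAATTTCTATTCCtgtctctga

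Slc1a2 encodes EAAT2, a sodium-driven glutamate carrier best known from astrocytes. Its 3 probes lie apart on the plus strand of mm9 at chr2:102617752-102617811, chr2:102622252-102622311 and chr2:102626380-102626439. The first was designed on a different RefSeq transcript of the gene than the other 2. The first 30 bases of each are given because the probes disagree below; none overlaps another. Whether a probe lies in coding sequence or in a UTR was not determined, since no mm9 annotation was used here.
Slc1a2 A_55_P1955412: aagcaactctaatcagtgtgtctatgccgc
Slc1a2 A_55_P2136847: gtagaatgtttcagagtttcatgggtgccc
Slc1a2 A_55_P2392625: aacccagtttccagcattcagacatcagta

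The promoters of the members were searched, on both strands, for the core of the antioxidant response element TGACNNNGC, which NRF2 binds, and for the amino acid response element TGATGNAAN, which ATF4 binds. These factors govern some amino acid carriers, and NRF2 is held down by a Cullin 3 ligase. A window here is the 250 bases before a RefSeq gene start on GRCm38.p6, and bases after the start were not searched. The members had 63 windows, of 43 of the 60 genes, and the other genes had no window to search. The antioxidant core was in 9 of 63 windows of the members (14.29%) and in 10.16% of all 32851 windows. Those 9 were windows of Slc6a9, Slc7a6, Slc38a2, Slc7a1, Slc6a13, Slc6a16, Slc6a11 and Slc43a1. The amino acid response element was in 2 of 63 windows (3.17%), both of Slc7a7, and in 3.44% of all windows. No member window held both motifs, and a match is a description of letters only. Of the 3 Slc6a9 windows, 2 held the antioxidant core, at positions -46 and -45 from their starts. The 250 bases before those starts are shown with the match in capitals, from chr4:117849100-117849349 and chr4:117855297-117855546 on the plus strand. The third Slc6a9 window and the Slc1a2 window held neither motif.
Slc6a9 first window: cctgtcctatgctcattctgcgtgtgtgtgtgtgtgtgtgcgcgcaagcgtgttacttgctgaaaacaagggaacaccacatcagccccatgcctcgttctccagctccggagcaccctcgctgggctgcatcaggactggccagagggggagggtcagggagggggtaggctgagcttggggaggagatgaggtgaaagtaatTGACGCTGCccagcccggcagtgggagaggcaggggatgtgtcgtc
Slc6a9 second window: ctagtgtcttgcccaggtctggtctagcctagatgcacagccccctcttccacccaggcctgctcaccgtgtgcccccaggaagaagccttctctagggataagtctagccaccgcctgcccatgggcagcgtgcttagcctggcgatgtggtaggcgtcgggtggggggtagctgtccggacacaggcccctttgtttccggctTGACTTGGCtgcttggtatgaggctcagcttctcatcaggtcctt

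Testing was limited to probes that the scanner software marked as well above background on each array of some group. That held for 53 of the 75 member probes, covering 43 genes, and for 39864 of all probes. Of the 75, 42 were above background on all 8 arrays, 16 on 1 to 7 arrays and 17 on none, and none was saturated. The 17 genes without a tested probe included 14 that were not well above background on any array, namely Slc1a1, Slc1a3, Slc3a1, Slc6a2, Slc6a7, Slc6a14, Slc6a15, Slc7a9, Slc7a10, Slc7a14, Slc38a4, Slc38a5, Slc38a8 and Slc43a1. The other 3 were Slc6a3, Slc6a17 and Slc6a20b. Each was tested in 5 comparisons with limma at an adjusted p under 0.05 over all probes tested: KO against WT in either state, LPS against untreated in either genotype, and the LPS response of KO minus that of WT. Of the 53 tested, 42 were called in at least 1 comparison and 11 in none. The matching share over all tested probes is not given here, but LPS in WT alone called 55.4% of them.

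In untreated cells, knockout macrophages had more Slc6a9 and Slc7a7 signal and less signal on 1 Slc1a2 probe than wildtype, and no other carrier was called. The test called 4 of 53 member probes, 3 higher and 1 lower (7.55%), where 2.16% of all tested probes were called, 1.46% higher and 0.705% lower. The median log2 difference was 0.03 over the members and 0.04 over all tested probes. In bulk samples such as these, fewer cells of a type and less RNA per cell cannot be told apart.

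The Slc6a9 probe A_55_P1973838 read -0.69 and -0.78 in WT untreated and 1.99 and 1.89 in KO untreated. With LPS it read -0.39 and -0.15 in WT and 4.17 and 3.93 in KO. Each KO array was above each WT array, and KO with LPS stood above KO untreated. The overlapping probe A_55_P2010788 read -0.85 and -0.78 in WT untreated, 2.12 and 2.12 in KO untreated, -0.35 and -0.07 in WT with LPS, and 4.29 and 4.09 in KO with LPS, the same order of groups. KO minus WT was 2.67 ± 0.15 and 2.94 ± 0.15 (SE) for the 2 probes untreated, folds of 6.37 and 7.67 (adjusted p = 0.00172 and 0.00129). With LPS it was 4.32 ± 0.15 and 4.41 ± 0.15, folds of 20.02 and 21.19 (adjusted p = 0.000566 for both). These genotype calls held under every alternative run, with adjusted p up to 0.0367.

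The Slc1a2 probe A_55_P1955412 was above background on all 8 arrays. It read -3.01 and -3.23 in WT untreated, -5.53 and -5.63 in KO untreated, 0.59 and 0.22 in WT with LPS, and 1.05 and 1.29 in KO with LPS. KO was the lower genotype without LPS and the higher one with it, with no overlap in either state. The untreated difference was -2.46 ± 0.18, and the level in WT was 5.50-fold that in KO (adjusted p = 0.00405). The call held under every alternative run, and the difference was between -2.57 and -2.35 except for -1.19 with normexp background correction. With LPS the difference was 0.77 ± 0.18 (adjusted p = 0.0427), and the call was lost under 11 of 18 alternatives, among them leaving out any array but WT with LPS replicate 1, where adjusted p reached 0.176.

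The other Slc1a2 probes did not show this pattern. A_55_P2392625 was above background on 3 arrays. It read -8.22 and -6.68 in WT untreated, -6.60 and -5.39 in KO untreated, -6.04 and -5.32 in WT with LPS, and -6.38 and -5.73 in KO with LPS. The spread within groups covered most of the range, and no comparison passed the test. The untreated difference on measured values was 1.46 ± 0.63 (limma adjusted p = 0.274). WT untreated was not well above background, and the probe passed the filter only through KO untreated, so no fold is given. A_55_P2136847 was above background on 2 arrays and was not tested. It read -8.49 and -8.01 in WT untreated, -8.29 and -8.21 in KO untreated, -5.58 and -7.56 in WT with LPS, and -6.72 and -5.36 in KO with LPS. The statements on Slc1a2 thus rest on 1 of its 3 probes.

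**Figure D1:**
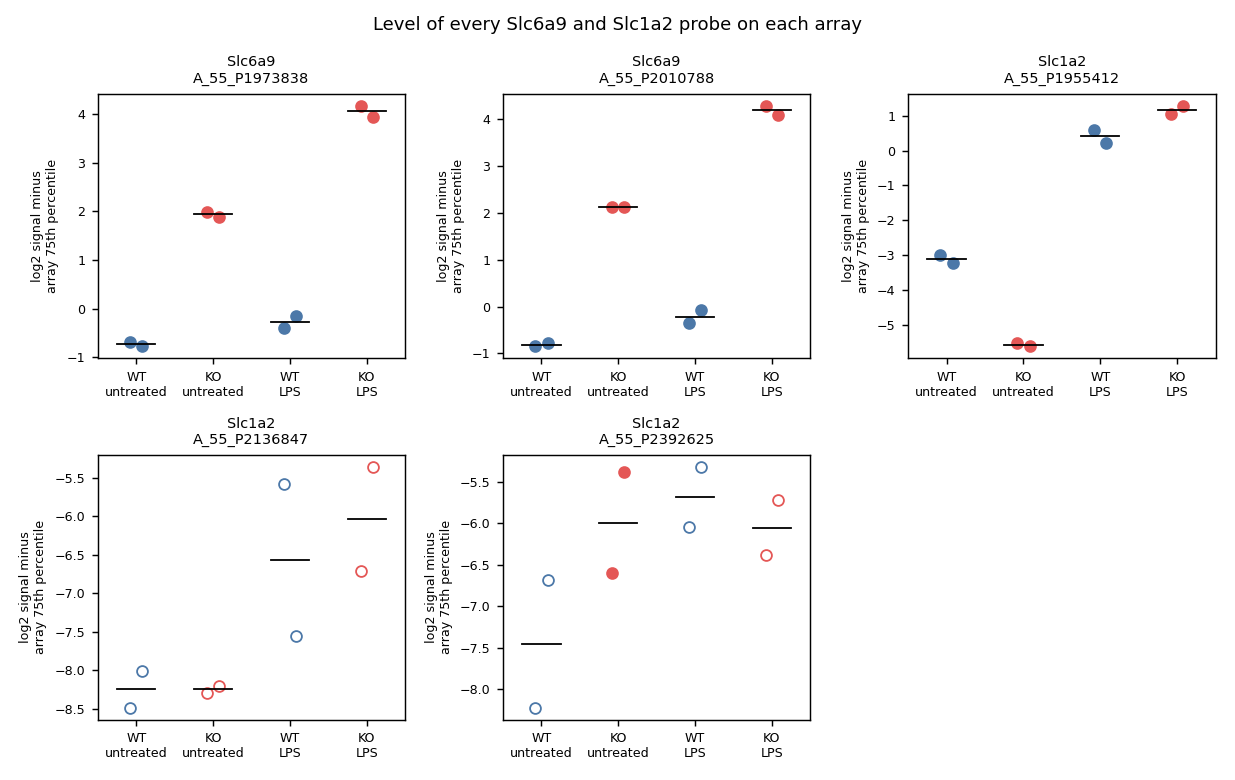
Level (log2 signal minus the array's 75th percentile) of the 2 Slc6a9 and 3 Slc1a2 probes on each of the 8 arrays; points are arrays, lines are means of 2, and open points mark groups where fewer than 2 arrays were well above background. Both Slc6a9 probes are highest in KO with LPS, and of the 3 Slc1a2 probes A_55_P1955412 alone is above background on all 8 arrays, from -5.63 to 1.29.

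Slc7a7 encodes the light chain y+LAT1, which exports arginine and lysine in exchange for neutral amino acids and is mutated in lysinuric protein intolerance. Its level was 3.68 and 3.65 in WT untreated and 4.63 and 4.59 in KO untreated, a difference of 0.95 ± 0.17 (adjusted p = 0.0498). With LPS the genotypes overlapped, at 5.62 and 6.00 in WT and 6.02 and 5.82 in KO. The untreated call was lost under 11 of 19 alternatives. They included leaving out any array of either untreated group or of KO with LPS, and adjusted p ranged up to 0.236.

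With LPS, the genotype difference reached more carriers. The test called 14 of 53 member probes, 10 higher and 4 lower in KO (26.4%), where 13.7% of all tested probes were called, 6.68% higher and 6.97% lower. The median difference was -0.07 over members and -0.07 over all tested probes. Without each array in turn the member count was between 5 and 9, so leaving out any of the 8 lowered it by more than 1.5 times, and 5 of the 14 calls held in all 8 of these fits. Those 5 were both Slc6a9 probes, Slc7a6, Slc43a2 and 1 probe of Slc36a4. With only the 4 LPS arrays in the fit, the count was 2, and the calls of Slc7a6, Slc43a2 and Slc36a4 were lost (adjusted p = 0.0516, 0.0567 and 0.0605).

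Slc7a6 encodes y+LAT2, the second y+LAT light chain. It read 0.41 and 0.27 in WT untreated, 0.75 and 0.81 in KO untreated, -2.34 and -1.98 in WT with LPS, and -0.22 and -0.43 in KO with LPS. KO was higher by 1.83 ± 0.17 with LPS (adjusted p = 0.00314), while the untreated difference of 0.44 did not pass (adjusted p = 0.232).

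Slc43a2 encodes LAT4, which lets branched-chain and other large neutral amino acids leave the cell. It read 6.36 and 6.33 in WT untreated, 6.45 and 6.52 in KO untreated, 2.08 and 1.93 in WT with LPS, and 3.32 and 3.46 in KO with LPS. The genotypes lay close together without LPS and apart with it, by 1.39 ± 0.13 (adjusted p = 0.00331).

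Slc36a4 encodes PAT4, a carrier of proline and tryptophan. Its probe A_55_P2136743 read 0.79 and 0.67 in WT untreated, 0.97 and 0.88 in KO untreated, -0.84 and -0.94 in WT with LPS, and 0.31 and 0.34 in KO with LPS. KO was higher with LPS by 1.21 ± 0.13 (adjusted p = 0.00438). The second probe, A_66_P124975, was also higher there, by 0.92 ± 0.19 (adjusted p = 0.0308), but this call was lost in 7 of the 8 fits with an array left out, with adjusted p up to 0.12.

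The other members called higher in KO with LPS were smaller or dimmer. Slc36a1 (PAT1), which exports small neutral amino acids from lysosomes, differed by 0.55 ± 0.13 on A_55_P1969820 (adjusted p = 0.043), with 0.42 and 0.33 in WT and 0.99 and 0.87 in KO. Its other probe, with 1 array missing from KO with LPS, differed by 0.27 ± 0.18 (adjusted p = 0.371). Slc6a13 (GAT2), a carrier of GABA and taurine, read -0.74 and -1.19 in WT and -0.18 and 0.00 in KO with LPS, a difference of 0.88 ± 0.18 (adjusted p = 0.0279). Slc7a12 (Asc-2), a light chain for small neutral amino acids, was above background on 1 array of KO with LPS and on none of WT with LPS. The KO mean lay below the lowest signal above background averaged over the WT arrays, so no fold is given, although the probe is 1 of the 10 called higher (adjusted p = 0.0451). The call was kept under 3 of 17 alternatives. The Slc7a12 probe passed the filter only through KO untreated.

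The 4 members called lower in KO with LPS belong to 3 families. Slc6a19 (B0AT1), a neutral amino acid carrier, read -3.61 and -4.21 in WT and -5.91 and -5.52 in KO, a difference of -1.81 ± 0.31 (adjusted p = 0.0173). Slc43a3, a purine nucleobase carrier, read -0.64 and -0.63 in WT and -1.64 and -1.28 in KO, a difference of -0.83 ± 0.15 (adjusted p = 0.0214). Neither pair of groups overlapped. The serotonin carrier Slc6a4 differed by -0.71 ± 0.17 (adjusted p = 0.0412) and Slc1a4, the neutral amino acid exchanger ASCT1, by -0.51 ± 0.13 (adjusted p = 0.0472). All 4 calls were lost in at least 1 fit with an array left out. The largest adjusted p in such fits was 0.0817 for Slc6a19, 0.0899 for Slc43a3, 0.156 for Slc6a4 and 0.175 for Slc1a4.

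**Figure D2:**
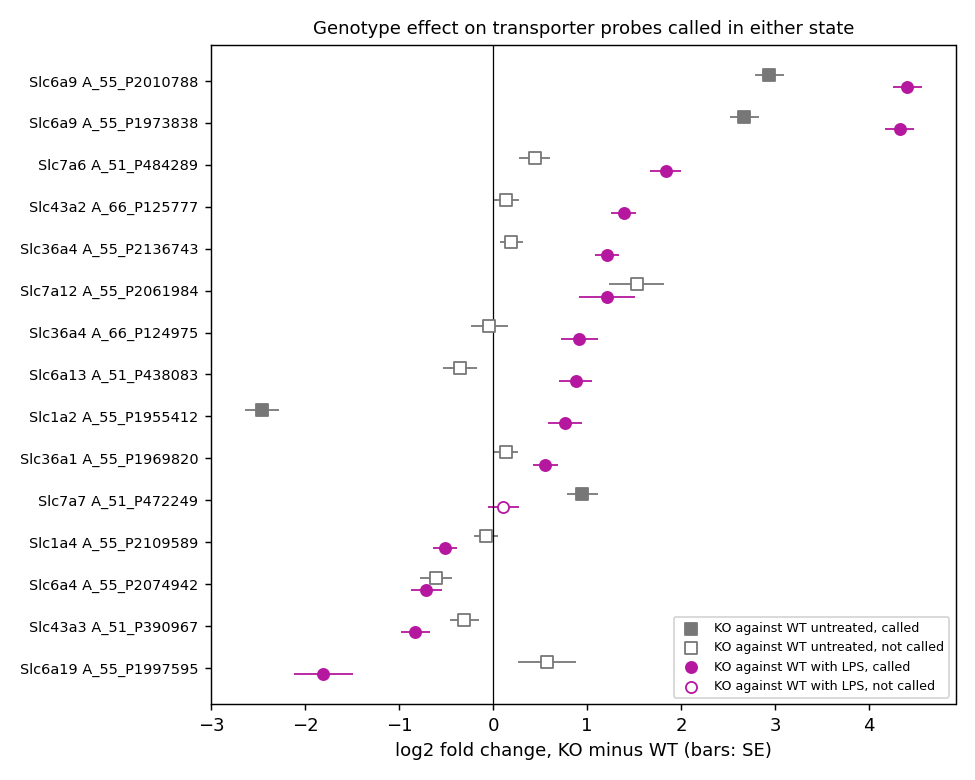
Log2 fold change, KO minus WT, of the 15 member probes called in either state, untreated (squares) and with LPS (circles); bars are SE, filled symbols passed the test and open ones did not. The Slc6a9 probes are at 2.67 and 2.94 untreated and 4.32 and 4.41 with LPS, and the Slc1a2 probe is at -2.46 untreated and 0.77 with LPS.

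Markers of neutrophils moved with genotype in the same arrays. Of 9 such markers, 6 were higher in KO untreated, where 1.46% of all tested probes were higher. With LPS, 7 were higher and 1 (Elane) lower in KO, where 6.68% of all tested probes were higher and 6.97% lower. The summed level of the 9 markers, in multiples of an array's 75th percentile, was 60.8 to 65.0 in WT untreated and 99.4 to 105 in KO untreated. With LPS it was 128 to 139 in WT and 203 to 227 in KO. Of the 9, 8 were above background on all 8 arrays and none was absent throughout. The sum of the 7 macrophage markers was 841 to 885 in WT and 745 to 811 in KO untreated, and 1613 to 1619 in WT and 1398 to 1441 in KO with LPS. Of 5 fibroblast markers, 1 (Pdgfrb) was higher in KO untreated, and with LPS 1 (Pdgfrb) was higher and 1 (Dcn) lower. Of 3 endothelial markers, Kdr was lower in KO in both states. The macrophage marker Mertk was lower in KO with LPS by -1.09 (limma adjusted p = 0.00667). Of the erythroid markers, Alas2 was above background on no array, and Hbb-b1 was higher in KO untreated by 1.99 and lower with LPS by -1.71. Of 4 dendritic cell markers, Batf3 was higher untreated by 1.37 and lower with LPS by -0.87, and Zbtb46 was lower with LPS by -0.68. With LPS the B cell marker Ms4a1 differed by -0.92 and the basophil marker Mcpt8 by 1.58. The T cell marker Cd8a read 6.474 on KO untreated replicate 1 and between -7.189 and -5.746 on the other 7 arrays, while Cd3e and Cd3d did not stand apart on that array. The part of other cells in the genotype differences of the carriers was not tested.

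LPS changed most of the tested carriers in both genotypes. In WT, 37 of 53 member probes were called, 22 higher and 15 lower (69.8%), where 55.4% of all tested probes were called, 33.9% higher and 21.4% lower. In KO, 36 were called, 21 higher and 15 lower (67.9%), where 45.9% of all tested probes were called, 26.6% higher and 19.3% lower. Of the calls, 32 were shared, which is 86.5% of those in WT and 88.9% of those in KO, with 19 higher and 13 lower in both and none in opposite directions. The same overlap over all tested probes is not given here, so these shares are not read as particular to the carriers. With each array left out in turn, 26 of the 37 WT calls and 25 of the 36 KO calls held throughout, and 11 in each genotype were lost at least once. Those lost in WT were Slc1a6, Slc1a7, Slc36a1, 1 probe each of Slc38a1 and Slc7a5, Slc38a3, Slc38a7, both Slc6a9 probes, Slc7a1 and Slc7a15. Those lost in KO were Slc1a7, Slc36a4, Slc38a10, Slc38a11, Slc43a3, Slc6a13, Slc6a20a, Slc7a15, 1 probe of Slc7a5, Slc7a6os and Slc7a8. The direction split depended on the scaling: in WT it was 16 higher and 18 lower with quantile normalization, 14 and 21 with median centring, 29 and 16 with normexp background correction, and 4 and 19 among the fewer probes with the unscaled deposited values. In KO it was 15 and 17, 13 and 17, 29 and 15, and 6 and 16 under the same 4 settings. The median LPS change of all tested probes was 0.30 in WT and 0.20 in KO as scaled here, and -0.61 and -0.47 with the unscaled values; each member's change is relative to these. The median over members was 0.32 in WT and 0.29 in KO.

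Among the heteromeric carriers, the heavy chain and most of its partners rose with LPS. Slc3a2 read 6.15 and 6.22 in WT untreated, 6.13 and 6.09 in KO untreated, 7.64 and 7.18 in WT with LPS, and 7.21 and 7.44 in KO with LPS. It rose by 1.22 ± 0.19 in WT (adjusted p = 0.00196) and 1.21 ± 0.19 in KO (adjusted p = 0.00254), and the genotypes overlapped with LPS. The Slc3a2 change did not pass in either genotype with quantile normalization, nor in WT with the unscaled deposited values. Slc7a5 (LAT1), the carrier of leucine and other large neutral amino acids, rose by 1.35 ± 0.18 in WT and 1.29 ± 0.18 in KO on A_55_P1973941 (adjusted p = 0.00123 and 0.00191), and by 0.55 and 0.68 with the unscaled values. Its second probe rose by 0.52 in WT (adjusted p = 0.0493), which turned to -0.33 with the unscaled deposited values, and by 0.83 in KO with 1 array missing (adjusted p = 0.0261).

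Slc7a8 (LAT2), a related light chain of wider substrate range, read 5.09 and 4.83 in WT untreated, 5.11 and 5.28 in KO untreated, 6.36 and 6.32 in WT with LPS, and 5.89 and 5.79 in KO with LPS. It rose by 1.38 ± 0.15 in WT (adjusted p = 0.000417, and 0.55 with the unscaled values) and 0.64 ± 0.15 in KO (adjusted p = 0.0133), and the difference between those responses did not pass (adjusted p = 0.12). The change in KO was lost without KO untreated replicate 1 or KO with LPS replicate 1, and with quantile normalization, median centring and the unscaled values, where it went as low as 0.015. Slc7a7 rose by 2.15 ± 0.17 in WT and 1.31 ± 0.17 in KO (adjusted p = 1e-04 and 0.00112), again with no called difference between responses (adjusted p = 0.118). With the unscaled values these rises were 1.29 and 0.61. Slc7a6, its closest relative, went the other way and fell by 2.50 in WT and by 1.10 in KO (adjusted p = 5.91e-05 and 0.00259). The dim light chain Slc7a13 (AGT1) was above background on both KO untreated arrays and on no other array. It was therefore tested only through the group where it was high. Its call in KO (adjusted p = 0.000914) is 1 of the 15 falls counted there. The fall is bounded only as at least 1.00-fold, so its size is not determined. The log2 change turned to 0.20 with normexp correction. Slc7a15, a dim light chain above background on 6 arrays, rose by 0.99 ± 0.29 in WT and 1.11 ± 0.29 in KO (adjusted p = 0.0271 and 0.0218). The Slc7a15 call in KO was lost without any single KO array, and that in WT without WT untreated replicate 1 or WT with LPS replicate 1, over which the WT change lay between 0.56 and 1.43. Each was lost under 6 of 17 alternatives in all.

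The cationic carriers of family 7, which bring in arginine without a heavy chain, split. Slc7a1 (CAT1) read 3.68 and 3.46 in WT untreated, 3.31 and 3.38 in KO untreated, 3.92 and 4.32 in WT with LPS, and 4.32 and 4.30 in KO with LPS. It rose by 0.96 ± 0.17 in KO (adjusted p = 0.005) and by 0.55 ± 0.17 in WT (adjusted p = 0.0345), the WT change turning to -0.24 with the unscaled values. The dimmer Slc7a3 (CAT3) rose by 1.94 ± 0.14 in WT and 0.95 ± 0.14 in KO (adjusted p = 7.56e-05 and 0.00218), and the WT rise was 1.09 with normexp. Slc7a4, a relative with no established transport activity, read 0.36 and 0.20 in WT untreated and -3.18 on both WT arrays with LPS. It fell by 3.46 in WT and by 3.77 in KO (adjusted p = 7.33e-06 and 9.41e-06). The pair left out of the member list, Slc7a2 (CAT2) and the cystine light chain Slc7a11, rose by 5.93 and 7.07 in WT and by 7.70 and 6.62 in KO. Slc7a2 was lower in KO untreated by -1.25 (adjusted p = 0.0182), its difference of 0.52 with LPS did not pass (adjusted p = 0.0725), and its LPS response was larger in KO by 1.77 (adjusted p = 0.026). Slc7a11 was higher in KO by 2.34 untreated and 1.89 with LPS (adjusted p = 0.00411 and 0.00317).

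The sodium-driven carriers of family 1 moved in both directions. Slc1a4 read 5.48 and 5.43 in WT untreated, 5.32 and 5.43 in KO untreated, 8.89 and 9.04 in WT with LPS, and 8.44 and 8.47 in KO with LPS. It rose by 3.51 ± 0.13 in WT and 3.08 ± 0.13 in KO (adjusted p = 6.14e-06 and 1.4e-05), 11.4-fold and 8.43-fold. Slc1a5 (ASCT2), the glutamine exchanger of the same subfamily, fell on both probes, by 1.94 and 2.07 in WT and by 1.73 and 1.59 in KO (adjusted p from 0.000306 to 0.00157). The Slc1a2 probe A_55_P1955412 rose by 3.52 ± 0.18 in WT and 6.75 ± 0.18 in KO (adjusted p = 2.09e-05 and 5.38e-06). Its level with LPS was 11.5-fold the untreated level in WT and 107.3-fold in KO. With normexp background correction these log2 changes were 2.96 and 4.90. The dim glutamate carriers Slc1a7 (EAAT5) and Slc1a6 (EAAT4) rose by 0.94 and 0.95 in WT (adjusted p = 0.00916 and 0.0143), and of the 2 only Slc1a7 was called in KO, by 0.77 (adjusted p = 0.0229).

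Family 38 carriers, which import glutamine, alanine and other small neutral amino acids with sodium, moved in both directions. Of 11 tested probes, 6 fell and 2 rose in WT with 3 not called, where 21.4% of all tested probes fell and 33.9% rose. In KO, 5 fell and 1 rose with 5 not called, where 19.3% of all tested probes fell and 26.6% rose. Slc38a2 (SNAT2), the form induced by amino acid shortage, read 4.93 and 5.11 in WT untreated, 4.66 and 4.54 in KO untreated, 3.57 and 3.33 in WT with LPS, and 3.36 and 3.22 in KO with LPS. It fell by 1.57 in WT and by 1.31 in KO (adjusted p = 0.000268 and 0.000772). Slc38a9, the lysosomal arginine sensor that activates mTORC1, fell by 1.57 in WT and by 1.53 in KO (adjusted p = 0.000282 and 0.000414), from 1.83 to 1.98 on untreated arrays to 0.10 to 0.45 with LPS. Slc38a1 (SNAT1) fell on 2 of its 3 probes, by 1.33 and 0.58 in WT and by 1.37 and 0.71 in KO (adjusted p from 0.000358 to 0.0108), and the third probe passed in neither genotype. Slc38a7, a lysosomal glutamine exporter, fell in WT by 1.04 (adjusted p = 0.0114), and its change of -0.38 in KO did not pass (adjusted p = 0.236). The WT call was lost without WT untreated replicate 2 (adjusted p = 0.0561), and the change was -0.69 without WT with LPS replicate 2. The dim probe A_55_P2077741 of Slc38a11 rose by 1.69 in WT and 0.93 in KO (adjusted p = 0.00401 and 0.0471) while a second probe of that gene was not called. Slc38a3 (SNAT3), a glutamine carrier of liver and brain, rose by 1.55 ± 0.43 in WT (adjusted p = 0.0226), with 0.46 in KO (adjusted p = 0.42). The WT change was between 0.88 and 2.23 with an array left out, lowest without WT with LPS replicate 1, and its call was lost without either WT untreated array (adjusted p up to 0.104) and with quantile normalization.

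Among the proton-coupled carriers and family 43, Slc36a2 and Slc43a2 fell by more than 3 on the log2 scale in both genotypes. Slc43a2 fell in both, with log2 changes of -4.34 in WT and -3.097 in KO (adjusted p = 3.73e-06 and 1.51e-05), the largest fall of a member in WT. Slc36a2 (PAT2), a glycine and proline carrier, read -0.02 and 0.11 in WT untreated, 0.49 and 0.58 in KO untreated, -3.32 and -3.22 in WT with LPS, and -2.94 and -3.08 in KO with LPS. It fell by 3.32 in WT and by 3.54 in KO (adjusted p = 8.17e-06 and 1.08e-05). Slc36a4 fell by 1.62 in WT and by 0.60 in KO on A_55_P2136743 (adjusted p = 0.000103 and 0.0092). On its dim probe A_51_P518014, Slc36a3 rose instead. It read -7.06 and -6.27 in WT untreated and -4.15 and -4.23 in WT with LPS, a rise of 2.48 ± 0.26 (adjusted p = 0.000389), which was 1.15 with normexp. In KO, where it was above background only with LPS, it was at least 2.91-fold higher (adjusted p = 0.00205). A_51_P518014 passed the filter only through the LPS groups. The other Slc36a3 probe, A_52_P5190, was above background on all 8 arrays, and its LPS change was called in neither genotype. That probe read -5.43 and -5.33 in WT untreated and -4.21 and -4.83 in WT with LPS. In KO it read -5.14 and -4.45 untreated and -4.46 and -4.02 with LPS. Slc36a1 rose by 0.87 ± 0.13 in KO on A_55_P1969820 (adjusted p = 0.0025) and by 0.45 ± 0.13 in WT (adjusted p = 0.0278), which turned to -0.36 with the unscaled values. Its other probe, A_55_P2000269, did not show the rise and was called in neither genotype. That probe read -3.64 and -3.57 in WT untreated and -4.09 and -3.91 in WT with LPS. In KO it read -3.80 and -3.65 untreated and -3.73 on 1 array with LPS. Slc36a1, Slc36a2 and Slc36a3 lie within 200000 bases of each other on chromosome 11 of mm9, and did not move alike.

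In family 6, Slc6a4 had the largest LPS rise of the members in WT. It read -4.32 and -4.27 in WT untreated, -4.96 and -4.84 in KO untreated, 0.72 and 1.12 in WT with LPS, and 0.23 and 0.19 in KO with LPS. The rise was 5.21 ± 0.17 in WT and 5.11 ± 0.17 in KO, 37.1-fold and 34.6-fold (adjusted p = 4.31e-06 and 7.77e-06). Slc6a8, the creatine carrier, fell by 1.73 in WT and by 2.10 in KO (adjusted p = 0.00197 and 0.00107). Slc6a12, the betaine and GABA carrier BGT1, rose by 0.90 ± 0.16 and 1.01 ± 0.16 (adjusted p = 0.00406 and 0.00319). With the unscaled deposited values both Slc6a12 calls were lost, at 0.09 in WT and 0.39 in KO. Slc6a6, the taurine carrier, read 6.29 and 6.20 in WT untreated, 6.38 and 6.44 in KO untreated, 6.27 and 6.53 in WT with LPS, and 5.79 and 6.17 in KO with LPS, and passed the test in no comparison. Slc6a20a, a proline carrier, rose by 1.01 in WT and 0.65 in KO (adjusted p = 0.00223 and 0.016). Its WT call was lost with the unscaled values, at 0.11. Its KO call was lost under 6 of 19 alternatives, as low as 0.045, among them quantile normalization, median centring and leaving out KO untreated replicate 1 or either KO array with LPS. Slc6a19 rose by 1.77 ± 0.31 in WT (adjusted p = 0.00371), with -0.61 ± 0.31 in KO (adjusted p = 0.156). Slc6a9 rose with LPS in KO by 2.11 ± 0.15 and 2.07 ± 0.15 on its 2 probes (adjusted p = 0.000111 for both). In WT its changes were 0.46 and 0.60 (adjusted p = 0.0435 and 0.0155), and these turned to -0.41 and -0.31 with the unscaled deposited values.

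**Figure D3:**
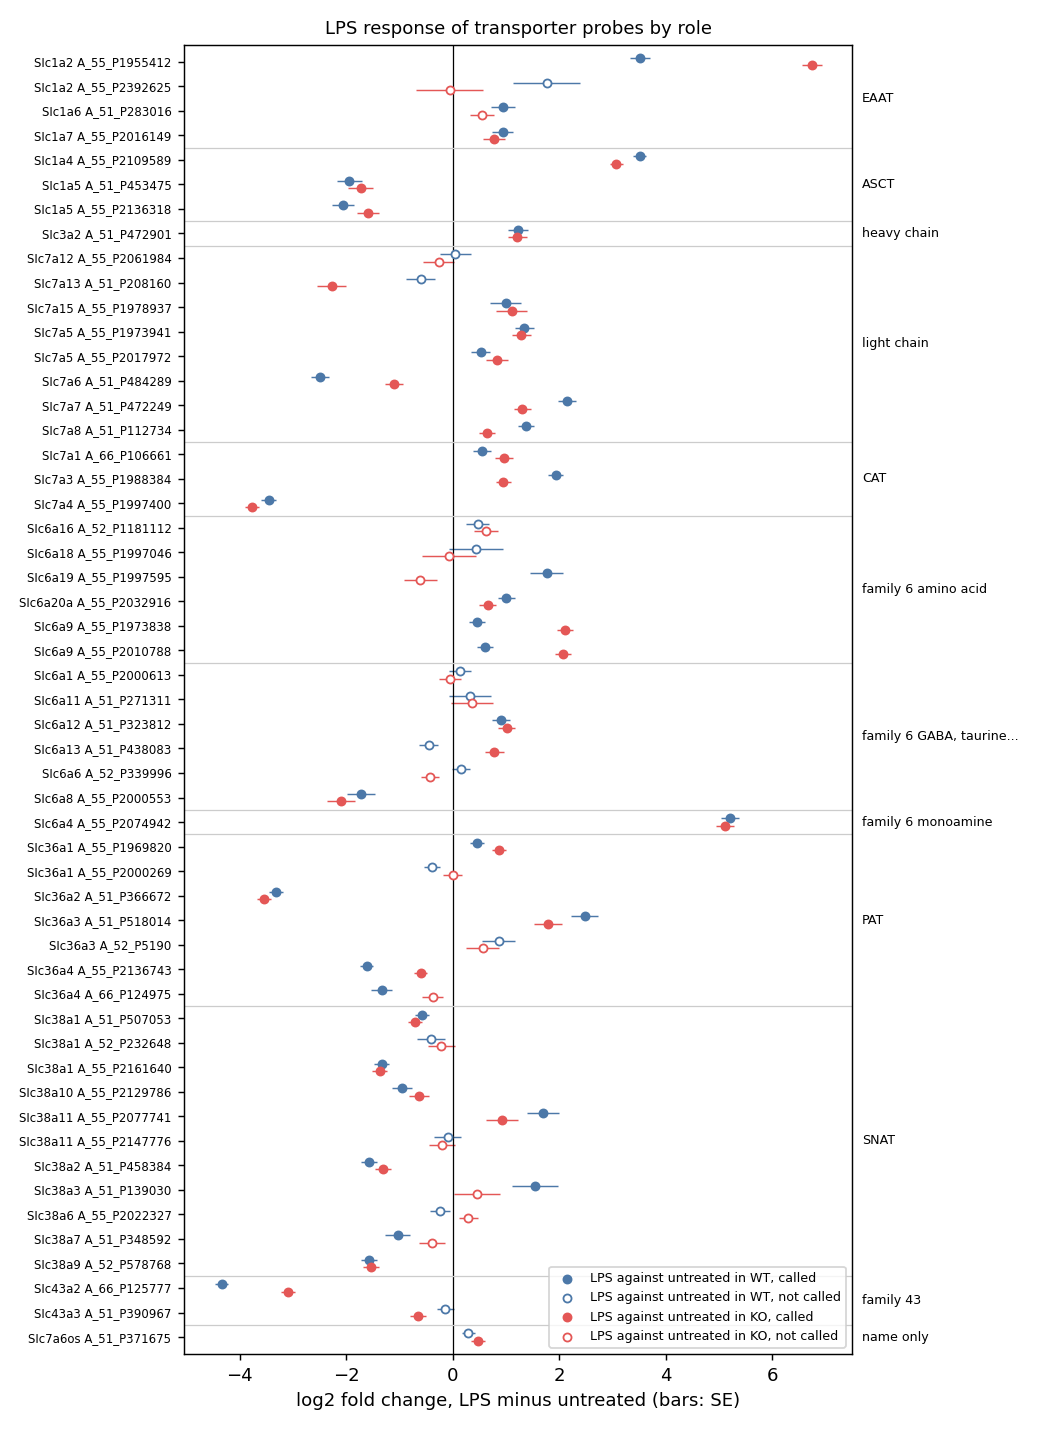
Log2 fold change, LPS minus untreated, of the 53 tested member probes in WT (blue) and KO (red), ordered by role; bars are SE, filled points passed the test and open ones did not. Slc6a4 lies at 5.21 and 5.11 and Slc43a2 at -4.34 and -3.097, and Slc1a2 A_55_P1955412 has the widest gap between genotypes, 3.52 in WT and 6.75 in KO.

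The LPS response itself differed between genotypes for 6 of 53 member probes (11.3%), all with the more positive response in KO, where 2.66% of all tested probes were called, 0.932% in that direction. For Slc1a2 A_55_P1955412 the response in KO exceeded that in WT by 3.23 ± 0.26 (adjusted p = 0.0145). For Slc6a9 the excess was 1.65 ± 0.22 and 1.47 ± 0.21 on the 2 probes (adjusted p = 0.0302 and 0.0342). Slc7a6, Slc43a2 and Slc36a4, which LPS lowered in both genotypes, were lowered less in KO, with differences of 1.39 ± 0.24, 1.25 ± 0.18 and 1.02 ± 0.18 (adjusted p = 0.0457, 0.0349 and 0.0467). The count was 7 without WT with LPS replicate 1 and 1 without WT with LPS replicate 2. Without any single array of the other 3 groups it was 0 by limma, where 12 to 16 member probes had an unadjusted p under 0.05. The log2 differences themselves stayed within 3.04 to 3.41 for Slc1a2 and 1.21 to 1.57 for Slc7a6 over the 8 fits with an array left out. With normexp they were 1.93 and 1.02. In the fit of all 8 arrays, 14 of the 53 member probes and 8121 of all 39827 tested had an unadjusted limma p under 0.05. Slc6a19, at -2.38 ± 0.44, was the largest difference in the other direction and did not pass (adjusted p = 0.0518).

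**Figure D4:**
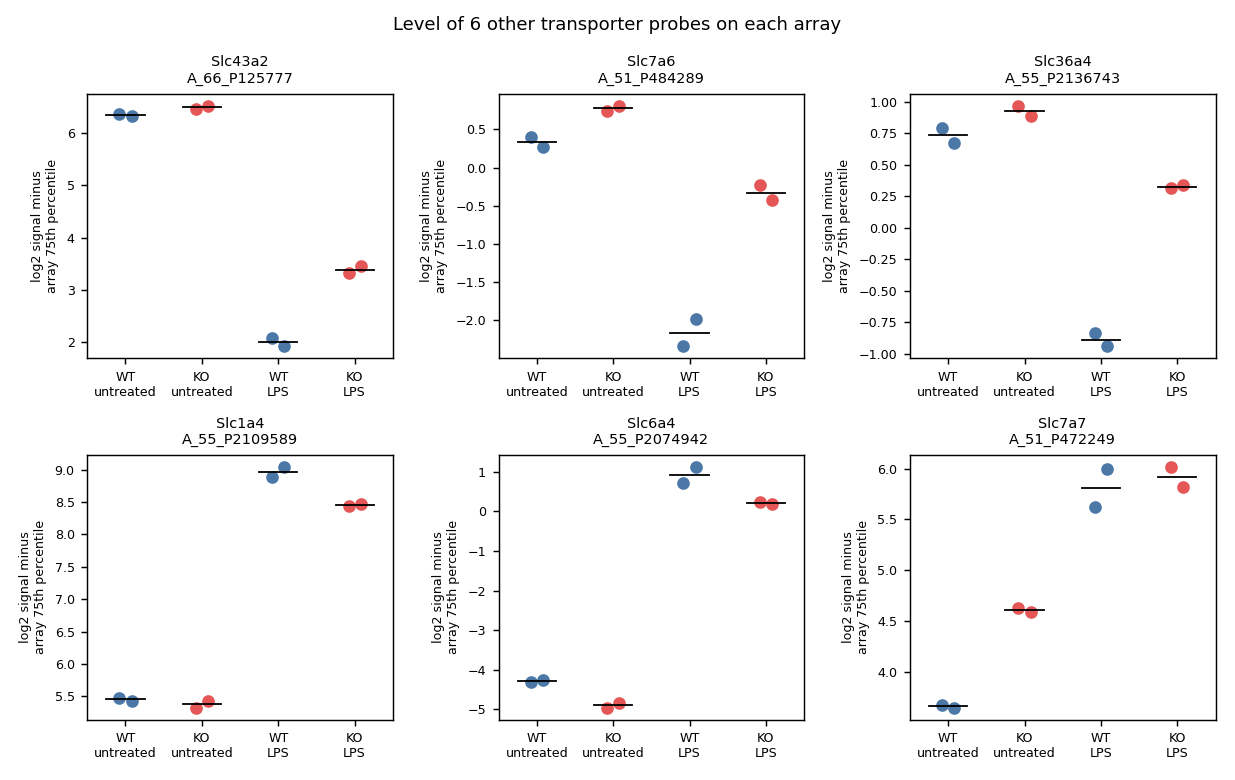
Level (log2 signal minus the array's 75th percentile) of 1 probe each of Slc43a2, Slc7a6, Slc36a4, Slc1a4, Slc6a4 and Slc7a7 on the 8 arrays; points are arrays and lines are means of 2. In the top row the KO arrays with LPS, such as 3.32 and 3.46 for Slc43a2, lie between the untreated arrays and the WT arrays with LPS at 2.08 and 1.93.

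Genes that work beside the carriers were read from lists of their pathways. The counts of these lists, here and below, stand beside the shares of all tested probes called higher and lower. Between genotypes, the shares higher and lower in KO were 1.46% and 0.705% untreated and 6.68% and 6.97% with LPS. For the LPS response they were 33.9% and 21.4% in WT and 26.6% and 19.3% in KO. Between untreated genotypes, 7736 of all 39849 tested probes had an unadjusted limma p under 0.05. Of 23 targets of ATF4, the factor of the amino acid response, 3 were lower and none higher in KO untreated: Chac1, which degrades glutathione, by -1.36, Phgdh, the entry enzyme of serine synthesis, by -1.20, and Mthfd2, a mitochondrial folate enzyme, by -0.72 (limma adjusted p = 0.0183, 0.0149 and 0.0439). With LPS, 6 were lower and 3 higher in KO, among them Chac1 at -1.61, Trib3 at -1.56 and Asns, the asparagine synthetase, at -1.07. LPS raised 10 and lowered 7 of the 23 in WT and raised 11 and lowered 8 in KO. The median LPS change of the list was 0.26 in WT and 0.62 in KO.

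Of 31 genes of amino acid sensing by mTORC1, LPS lowered 13 and raised 9 in WT and lowered 15 and raised 5 in KO. The leucine sensor family member Sesn1 fell by 7.03 in WT and by 6.27 in KO, the GTPase Rragb by 5.15 and 4.95, and the arginine sensor Castor1 by 3.96 and 3.36. Between genotypes with LPS, 4 were higher and 3 lower in KO, led by Sesn3 at -1.90 and Sesn1 at 1.19. In untreated cells none passed by limma, where 7 had an unadjusted p under 0.05 and Mios was nearest at 0.59 (adjusted p = 0.105).

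Enzymes that use what the carriers bring were read from 4 lists. Of 17 genes of branched-chain amino acid breakdown, 10 fell and 4 rose in WT and 10 fell and 3 rose in KO, led by Hibch at -3.52 and -3.48. Of 14 glutamate and glutamine enzymes, 9 fell and 4 rose in WT and 8 fell and 2 rose in KO, with Glul, the glutamine synthetase, at -3.19 and -2.87 and Gfpt2, which feeds glutamine to hexosamines, at 4.82 and 4.12. Of 20 aminoacyl-tRNA synthetases, 11 fell and 4 rose in WT and 8 fell and 4 rose in KO, with Wars, the interferon-inducible tryptophan form, at 2.43 and 1.30. Of 16 tested serine, glycine and one-carbon genes, 7 fell and 6 rose in WT and 7 fell and 8 rose in KO, with Psat1, of serine synthesis, at 3.77 and 3.18.

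Between genotypes fewer of these enzymes were called. In untreated cells limma called none of the tRNA synthetases, the breakdown genes or the glutamate and glutamine enzymes, where 3, 2 and 6 had an unadjusted p under 0.05. The nearest of each list were Sars at -0.52 (adjusted p = 0.0847), Mut at 0.42 (adjusted p = 0.125) and Ctps at 0.79 (adjusted p = 0.109). With LPS, 4 glutamate and glutamine enzymes were higher in KO, namely Ctps at 1.33, Ppat at 1.00, Gpt2 at 0.95 and Glul at 0.85 (adjusted p from 0.0111 to 0.0146). Among the one-carbon genes, Mthfd1l was higher by 1.33 and those lower included Tyms and Mthfd2, at -1.14 and -0.71, and Wars and Rars were lower by -1.04 and -0.72. Of the breakdown genes, Ppm1k was lower by -1.66. Of 20 tested other amino acid and peptide carriers, a list that holds Slc7a11 and Slc7a2, 4 were higher and 1 lower in KO with LPS, among them the mitochondrial ornithine carrier Slc25a15 at 1.503.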

How the data were processed

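RNA of 8 samples was measured on 8 Agilent 1-colour (Cy3) arrays of 1 slide, from 0.5 micrograms of RNA each. Per the file headers, the authors' deposited spot intensities were made with Agilent Feature Extraction, whose processed signal is background-subtracted and spatially detrended; per the submitters' processing notes, its version was 10.7.3.1. The deposited log2 value table of the authors covers 26670 probes, 40 of them members, and matches the log2 background-subtracted signal with no scaling between arrays (r at least 0.996). Its column medians were 10.94 and 11.10 for WT untreated, 10.67 and 10.73 for WT with LPS, 11.11 and 11.03 for KO untreated, and 10.85 and 10.71 for KO with LPS. The table was used as an alternative only.

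Here, spots marked as outliers were left out, spots of a probe were averaged, and log2 processed signal minus the array's 75th percentile was fitted by limma 3.58.1 in R 4.3.3 with 4 group means over all 8 arrays, moderated by eBayes, with Benjamini-Hochberg adjustment over all probes past the filter. SE is the moderated standard error. The fit was tested on simulated data. For 3 member probes, KO with LPS replicate 2 was an outlier and missing, so that group has 1 array there. Where a probe was not above background on any array of a group, any fold given is "at least", from the lowest signal above background on those arrays. All probes of Slc1a2 and Slc6a9 are reported, while for other members some probes or comparisons are not given. For the related lists and cell type markers, 1 probe a gene was read, the one with the highest mean over the 8 arrays. There were 19 alternatives: normalization, background, filter, 1 probe a gene, replicate block, slide column, moderation, fewer arrays, and each array left out. The genes named are every probe of Slc1a2 and Slc6a9, in each comparison up to the 10 called members with the largest rises and falls, the main carrier of each transport system, and up to 4 called genes of each related list, or the one with the smallest p where none was called. Slc7a11 and Slc7a2 are named as the carriers left out, and a few further called members were named after their values were seen. The members, gene lists and tests were chosen with earlier results of these data known. Figures were drawn with matplotlib 3.10.9.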

Additional observations from a re-analysis of the deposited data

Results flagged for a closer look

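For 6 member probes of 5 genes, the LPS response differed between genotypes by a test of that difference itself (limma interaction contrast, adjusted p under 0.05). The response of KO minus that of WT, on the log2 scale, was 3.2257 for Slc1a2 A_55_P1955412, 1.6524 for Slc6a9 A_55_P1973838, 1.4668 for Slc6a9 A_55_P2010788, 1.393 for Slc7a6, 1.2464 for Slc43a2 and 1.0179 for Slc36a4 A_55_P2136743. The adjusted p-values were between 0.0145 and 0.0467, and every one of the 6 calls was lost in at least 1 fit with an array left out. Slc1a2 was the only one whose genotype difference was called in opposite directions in the 2 states, and its other tested probe gave -1.83 for the same contrast (adjusted p = 0.315).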

How the results depend on the processing

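Of 97 calls of a member probe in a comparison, 82 held with quantile normalization, 75 with median centring, 95 with normexp and 76 with the replicate block. Changes of sign came with the unscaled deposited values for the LPS response in WT of Slc36a1 A_55_P1969820 (-0.3553), Slc6a9 (-0.4147 and -0.3064), Slc7a1 (-0.2419) and Slc7a5 A_55_P2017972 (-0.3303) and in KO of Slc7a6os (-0.1745), and with normexp for Slc7a12 between genotypes with LPS (-0.0746) and Slc7a13 with LPS in KO (0.1985). The causes were not tested. Member calls between genotypes with LPS, 14, were 8 with unscaled values, 6 with no filter, 7 with the replicate block, 2 with only the 4 arrays, 4 with the column block and 5 to 9 with an array left out. Member LPS calls with unscaled values were 22 in KO and 23 in WT, where fewer members were tested. Member calls of the response difference, 6, were 3 with median centring, 10 with normexp or trended and robust moderation, 0 to 7 with an array left out, and 0 by limma with no filter, the replicate block or the column block (14, 14 and 13 at an unadjusted p under 0.05).

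Over all probes, calls between untreated genotypes, 861, were 2799 with normexp, 1786 unscaled, 300 with no filter, 1511 for probes above background on all 8 arrays, 318 with the replicate block, 2099 with trended moderation, 387 with the 4 arrays, 112 with the column block and 110 to 1306 with an array left out. With LPS, 5440 became 2816 with no filter, 3079 with the replicate block, 487 with the 4 arrays, 770 with the column block and 1382 to 4902 with an array left out. LPS calls were 27988 with normexp (KO) and 11787 (KO) and 13464 (WT) unscaled, against 18272 and 22066. Calls of the response difference, 1060, were 520 with median centring, 2896 with normexp, 2058 for probes above background on all 8 arrays, 2628 with trended moderation, 0 to 1836 with an array left out, and 0 by limma with no filter, the replicate block or the column block (8161, 7070 and 5752 at an unadjusted p under 0.05).

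The replicate numbers share no label of origin, and deviations of same-numbered samples correlated at -0.1807 to 0.0334, so they were not taken as pairs. With 2 arrays a group, dim probes near background, such as Slc7a12 and 2 of 3 Slc1a2 probes, have little precision.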
